A study of Mus musculus with 3 samples.

Results

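Luminal cells of the mouse prostate that carried Spink5 RNA were described here, and 491 such cells were found among 32139 deposited barcodes. A barcode was kept with at least 500 genes, at most 15% of its unique molecular identifiers (UMIs, counts of captured RNA molecules) from mitochondrial genes and under 10% from 7 Svs genes of the seminal vesicle. Of the kept barcodes, a Spink5-positive cell had at least 5 Spink5 UMIs, fewer than 10 UMIs of the basal keratins Krt5 and Krt14, and under 2% of its UMIs from Msmb, Defb50 and Wfdc3 together. The cells were thus chosen by their own measured RNA, so the level of these genes in the selected cells is a description and supports nothing. At least 5 Spink5 UMIs were counted in 16 kept barcodes of the knockout library, 173 of heterozygote 1 and 367 of heterozygote 2. Of these, 0, 3 and 62 were left out for Msmb, Defb50 and Wfdc3, and 0 for the basal keratins.

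Spink5 encodes LEKTI, a secreted inhibitor with many Kazal-type domains that blocks kallikreins and other serine proteases, and it is best known from the skin, where its loss causes Netherton syndrome. The secretory luminal cells of the mouse prostate differ between lobes. Sbp, the spermine-binding protein, and Spink1, a Kazal-type trypsin inhibitor, are abundant androgen-dependent secretions known from the ventral lobe, while Pbsn (probasin), Tgm4 (a transglutaminase of the copulatory plug) and Msmb are secretions of other lobes. Secretoglobins are small secreted dimeric proteins that include the androgen-binding proteins of mouse saliva and lacrimal fluid. Nupr1 encodes a small nuclear protein induced by cell stress.

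Droplet single-cell RNA sequencing (10x Genomics) was done on whole prostate of C57BL6 mice aged 12 to 15 weeks, with 1 library labelled Srd5a2 knockout and 2 labelled Srd5a2 heterozygous, none of them treated. Srd5a2 encodes the type of steroid 5α-reductase that makes dihydrotestosterone, the main prostate androgen, and every mouse here carried at least 1 targeted allele, so no wild type was compared here. During enzymatic dissociation, which took 2 h at 37 °C, the medium held dihydrotestosterone in all groups. The labels name neither the number of animals in a library nor the deleted part of Srd5a2.

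The matrices held 13273 knockout, 5000 heterozygote 1 and 13866 heterozygote 2 barcodes, and 5714, 3944 and 8797 of these were kept. Srd5a2 itself was found at 0.306, 3.85 and 2.30 CPM (UMIs of a gene per 1000000 UMIs counted) over all kept barcodes, from 13, 131 and 158 UMIs, so the knockout library was the lowest. Each pair of libraries shared 15 to 57 barcode sequences, and 0 barcodes were Spink5-positive in both libraries of a pair. Seminal vesicle RNA differed between libraries. In other luminal cells the Svs genes took 2.08% of UMIs in the knockout, 0.296% in heterozygote 1 and 0.665% in heterozygote 2. Fibroblasts had the same order (3.55%, 0.391% and 0.774%), but luminal cells high in Msmb did not (1.60%, 0.221% and 1.71%). Among the Spink5-positive cells heterozygote 2 was the highest, at 2.37%, against 0.189% in heterozygote 1 and 0.885% in the knockout. In 79 of the 305 Spink5-positive cells of heterozygote 2 at least 5 UMIs of smooth muscle markers were counted, against 5 of 170 in heterozygote 1 and 0 of 16 in the knockout.

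The Spink5-positive cells numbered 16 in the knockout, 170 in heterozygote 1 and 305 in heterozygote 2. They were epithelial: Epcam was found in 16, 167 and 298 of them, and at least 5 UMIs of the luminal keratins Krt8 and Krt18 in 16, 155 and 296. UMIs of Krt5 or Krt14 were absent from 14, 163 and 269 of the cells. Of the 10 luminal markers listed, 10 passed a mean of 50 CPM and 0 differed 2-fold from other luminal cells in both heterozygotes. None of the listed markers of fibroblasts, smooth muscle, endothelium, macrophages, T or NK cells, ionocytes, neuroendocrine cells, epididymis or glia reached a mean of 50 CPM over the libraries, although the smooth muscle genes Acta2 and Tagln were at 103 and 105 CPM in heterozygote 2. At least 5 UMIs of fibroblast markers were counted in 2, 5 and 5 of the cells, of endothelial markers in 0, 3 and 4, and of macrophage markers in 0, 1 and 0.

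The 4 genes proposed as markers of these cells (Spink5, Nupr1, Scgb2b7 and Scgb2b20) did not mark them equally. A marker counted as detected at a log2 difference of at least 1 from other luminal cells and in at least 25% of cells. Spink5, which chose the cells, and Nupr1 passed in every library. Scgb2b7 passed only in heterozygote 2, where 34.1% of cells held a UMI, and Scgb2b20 passed in none, with 0%, 11.2% and 17.0% of cells. The data therefore go against a name built on secretoglobins, and the cells are called Spink5-positive luminal cells. Sbp and Spink1 were the most abundant transcripts of their summed UMIs, but not of every cell.

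Start regions of 3 of these genes are shown because the secretoglobin pair is nearly identical in sequence and Sbp leads the summed UMIs. The windows of 300 bases come from RefSeq (build GRCm38.p6), run 5′ to 3′ on the gene's strand, and have in capitals the letters TGTTCT, a half-site of steroid hormone response elements. Scgb2b7 lies on the minus strand at chr7:31703779-31705757 with its window at chr7:31705705-31706004. Scgb2b20 lies on the minus strand at chr7:33364343-33366322 with its window at chr7:33366270-33366569. Sbp lies on the plus strand at chr17:23941672-23945607 with its window at chr17:23941668-23941967.
Scgb2b7: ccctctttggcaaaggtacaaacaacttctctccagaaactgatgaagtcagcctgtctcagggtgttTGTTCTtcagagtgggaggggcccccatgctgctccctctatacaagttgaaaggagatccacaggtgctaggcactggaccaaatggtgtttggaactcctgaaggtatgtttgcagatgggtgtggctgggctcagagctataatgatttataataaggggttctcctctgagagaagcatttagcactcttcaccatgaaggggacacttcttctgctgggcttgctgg
Scgb2b20: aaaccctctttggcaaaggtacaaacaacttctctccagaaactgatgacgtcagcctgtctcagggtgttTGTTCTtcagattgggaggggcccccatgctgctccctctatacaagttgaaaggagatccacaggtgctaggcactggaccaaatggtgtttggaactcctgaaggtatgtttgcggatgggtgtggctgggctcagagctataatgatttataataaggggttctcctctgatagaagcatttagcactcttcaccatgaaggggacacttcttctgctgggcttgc
Sbp: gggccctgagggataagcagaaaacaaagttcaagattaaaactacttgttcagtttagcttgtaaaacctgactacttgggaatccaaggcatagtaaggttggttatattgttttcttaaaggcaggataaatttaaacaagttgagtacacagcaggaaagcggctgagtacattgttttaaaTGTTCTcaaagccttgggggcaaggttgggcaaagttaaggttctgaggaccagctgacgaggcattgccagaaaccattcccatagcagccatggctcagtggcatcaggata
The Scgb2b7 and Scgb2b20 windows were identical at 98.7% of 297 aligned bases and their transcripts at 98.7% of 520, so a read can be assigned to the wrong gene of the pair and their values are uncertain. Scgb2b12 matched the Scgb2b7 transcript at 95.1% of aligned bases, and Sbpl matched Sbp at 93.7%. TGTTCT was searched on both strands, as TGTTCT or AGAACA, and was found once in each of the 3 windows. It is common: 19.0% of 32851 such windows hold it, so the match is a description and not a binding site.

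Sbp and Spink1 dominated the summed RNA of the Spink5-positive cells in every library. Sbp was at 169708 CPM in the knockout, 275385 CPM in heterozygote 1 and 158006 CPM in heterozygote 2, against 7884, 41147 and 19467 CPM in the other luminal cells. Spink1 was at 94303, 103884 and 109707 CPM, against 2861, 15493 and 11162 CPM. All 3 Spink5-positive values of each gene lay above all 3 values of the other luminal cells. The selected cells held 2.21%, 10.3% and 8.11% of the UMIs of all luminal cells but 32.8%, 43.4% and 41.7% of the Sbp UMIs and 42.7%, 43.5% and 46.4% of the Spink1 UMIs. Sbpl, the neighbour and close copy of Sbp, was counted at 28.8, 52.4 and 33.0 CPM against 1.09, 7.55 and 4.35 CPM. The 2 transcripts match at 93.7% of aligned bases, so Sbp reads assigned to Sbpl may enter these values, which was not tested. Spink5 itself was at 8636, 9507 and 4704 CPM, and 98.7%, 98.1% and 92.8% of luminal Spink5 UMIs lay in the selected cells.

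Differences from the other 7857 luminal cells are the contrast that the selection used, so they are given with no test. Of 2702 genes with a mean of at least 50 CPM, 42 (1.55%) were more than 2-fold higher in the Spink5-positive cells of both heterozygotes and 165 (6.11%) were more than 2-fold lower. Because Sbp and Spink1 fill so much of the total, the median gene sat at a log2 difference of -0.49, and with these 2 genes left out of the totals 95 genes were higher and 64 lower. The 20 genes with the largest differences in the heterozygotes were Spink5, Kcnk3, Csta1, Crabp1, Spink1, Nupr1, Hdac9, Sbp, Paqr8, Slc26a4, Mug1, BB123696, Cdcp3, Lrrc26, Abo, Asrgl1, Edn1, Fam25c, Ank and Cbr2. The 10 at the other end were Prol1, Msmb, Spink8, 9530003J23Rik, Pnliprp1, Defb1, C1s2, Gxylt2, Pcp4l1 and Ren1.

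**Figure D1:**
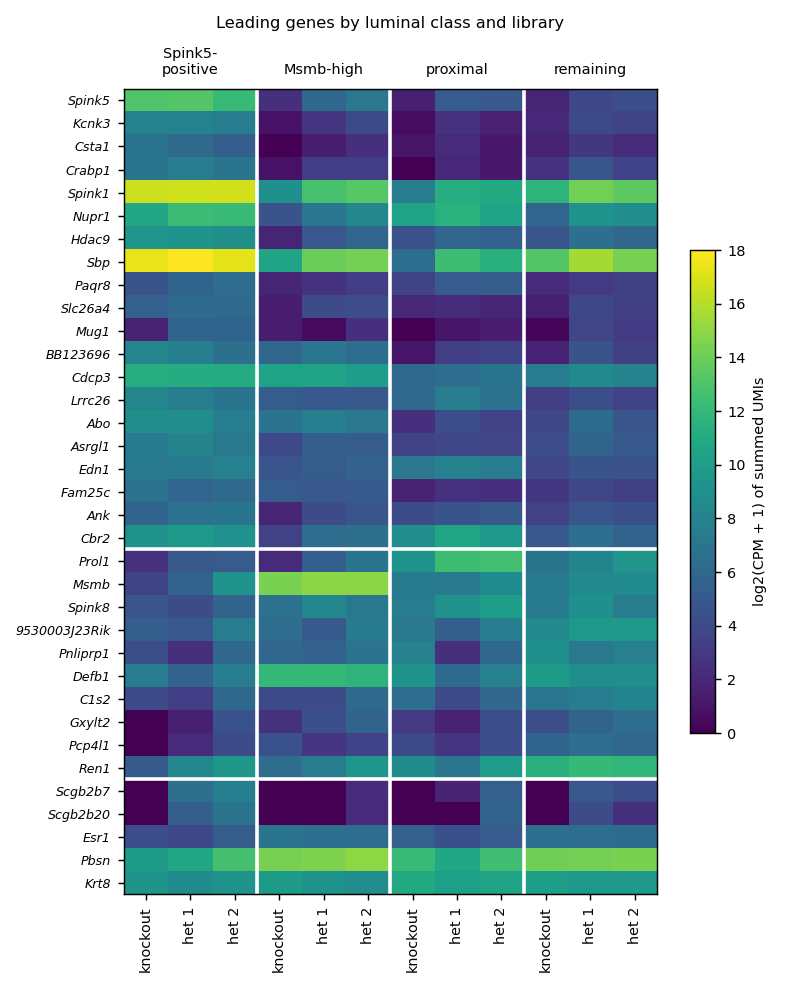
Level of the leading genes as log2(CPM + 1) of summed UMIs, by luminal class (Spink5-positive, Msmb-high, proximal and remaining luminal cells) and library (1 column each). The blocks from top to bottom are the 20 genes highest and the 10 genes lowest in Spink5-positive cells against other luminal cells, and 5 further genes. Sbp reached 275385 CPM in the Spink5-positive cells of heterozygote 1.

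Among protease inhibitors, Spink5 and Spink1 were accompanied by Csta1, a cystatin that inhibits cysteine proteases, at 122, 74.0 and 43.5 CPM in the knockout, heterozygote 1 and heterozygote 2, against 2.17, 5.83 and 3.77 CPM. Mug1, of the α2-macroglobulin family, was at 2.40, 53.6 and 54.5 CPM, against 0.271, 10.2 and 7.01 CPM. Its knockout value stood apart from both heterozygotes in the selected cells and in the others. Timp2, an inhibitor of metalloproteases, was at 151, 128 and 165 CPM, against 19.1, 45.5 and 40.3 CPM, with no overlap between the cell classes. Of 13 listed inhibitors that reached 50 CPM, 3 were 2-fold higher (Spink1, Spink5, Timp2) and 4 lower (Spink8, Serpinb1a, Cst3, Timp3). Over all genes 1.55% were higher and 6.11% lower. The median log2 difference of the list was -0.30 beside -0.49 over all genes. No listed kallikrein or other protease was 2-fold higher, and Tmprss2 and the metalloprotease Mmp7 were 2-fold lower among the 6 that reached 50 CPM.

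As averages over the cells, Pbsn and Tgm4, secretions of other lobes, were low. Of 17 listed prostate secretions at 50 CPM, 3 were 2-fold higher (Sbp, Spink1 and Pigr, the receptor that carries immunoglobulin A across epithelium). Another 10 were lower, 2 of them (Msmb, Defb50) through the selection itself, beside 1.55% higher and 6.11% lower over all genes. Pbsn was at 906, 1755 and 6526 CPM, against 16170, 18072 and 21597 CPM in other luminal cells. Tgm4 was at 688, 1281 and 5306 CPM, against 10869, 13760 and 17638 CPM. For both genes the Spink5-positive cells were lower in every library, with heterozygote 2 the highest of the 3. Ren1, which encodes renin, was at 33.6, 304 and 754 CPM, against 2331, 3397 and 3168 CPM.

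Kcnk3, a potassium leak channel, was at 249, 244 and 192 CPM, against 2.61, 13.3 and 11.9 CPM, and was found in 56.3%, 55.9% and 47.5% of the selected cells. Slc26a4 (pendrin, an anion exchanger) was at 45.6, 77.6 and 72.6 CPM against 2.12, 13.2 and 10.3 CPM. Slc12a2, the sodium-potassium-chloride cotransporter, was at 1393, 1187 and 1367 CPM against 189, 306 and 289 CPM. These 3 transport genes were higher in the Spink5-positive cells of every library. Crabp1, a retinoic acid-binding protein, was at 127, 184 and 119 CPM against 4.40, 22.7 and 10.6 CPM. Hdac9, a histone deacetylase, was at 669, 609 and 474 CPM against 23.9, 84.7 and 58.4 CPM.

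Nupr1 stood apart from the other listed stress genes. It was at 1805 CPM in the knockout, 5100 in heterozygote 1 and 4547 in heterozygote 2, against 194, 754 and 479 CPM in other luminal cells. Of 25 listed secretory-pathway and stress genes at 50 CPM, Nupr1 was the only one 2-fold higher in both heterozygotes, and Atf4, Asns, Pdia4, Pdia6 and Dnajb9 were 2-fold lower. Their median log2 difference was -1.06, beside -0.49 over all genes, of which 1.55% were higher and 6.11% lower. Proximal luminal cells also carried Nupr1, at 1346, 2865 and 1332 CPM, below the Spink5-positive cells in each library. Of 14 proximal markers at 50 CPM, 2 were 2-fold higher (Pigr and Cldn10) and 0 lower. Cdcp3 and BB123696 were shared with the Msmb-high cells rather than with the proximal ones: Cdcp3 was at 2369, 2293 and 2106 CPM in the Spink5-positive, 1327, 1343 and 1015 CPM in the Msmb-high and 69.7, 85.8 and 119 CPM in the proximal cells.

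Esr1, the estrogen receptor α, was lower in the Spink5-positive cells than in the others, at 19.2, 14.2 and 38.5 CPM against 90.0, 80.4 and 78.5 CPM, from 8, 35 and 147 UMIs. A UMI of Esr1 was found in 37.5%, 15.9% and 37.0% of the Spink5-positive cells. None of the 14 listed androgen-responsive genes at 50 CPM was 2-fold higher, and 6 were lower, among them Tmprss2, Pbsn, Acsl3, Sord and Hpgd. Over all genes 1.55% were higher and 6.11% lower, so the share of lower genes was larger in this list. The median of the list, -0.49, equals that of all genes. Of 12 epithelial transcription factors, 0 were higher and 2 were lower, among them Gata3, and Hoxb13, a homeobox factor of the prostate, stood at 348, 389 and 234 CPM against 145, 244 and 212 CPM.

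The remaining lists are given beside 1.55% higher and 6.11% lower over all genes. Of 9 keratins and cornified envelope genes at 50 CPM, 0 were 2-fold higher and Sprr1a and Sprr2f were lower, with a median log2 difference of -0.52. Of 6 innate defence genes, Pigr and the chemokine Cxcl17 were higher and Defb1 lower, and Cxcl17 was at 254, 118 and 92.0 CPM against 18.2, 35.4 and 14.7 CPM. Of 8 ion and water transport genes Slc12a2 was higher and Car2 lower, and of 21 immediate early and heat shock genes only Fosl1 differed, being lower. Upk1a, a uroplakin of the urothelium, was higher and Upk1b was lower. Of 3 steroid receptors and enzymes only Esr1 differed, of 3 basal markers 0 were higher and 1 was lower, of 8 seminal vesicle genes 0 were higher and 1 was lower, and the 1 cell cycle gene at 50 CPM did not differ 2-fold.

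The cells varied widely among themselves. Sbp made up from 0% to 44.7% of the UMIs of a knockout cell (median 5.05%), from 0.00360% to 54.8% in heterozygote 1 (median 16.3%) and from 0.0316% to 50.8% in heterozygote 2 (median 7.35%). It was under 1% of the UMIs in 6 of 16, 43 of 170 and 37 of 305 cells. With under 10 Spink5 UMIs per 10000 there were 4, 14 and 53 cells, with 10 to 50 there were 4, 43 and 185, and with at least 50 there were 8, 113 and 67. In the knockout, the 4 cells under 10 had almost no Sbp (69.8 CPM), unlike the corresponding 14 cells of heterozygote 1 (199931 CPM) and 53 cells of heterozygote 2 (93982 CPM). The selection set no limit on proximal markers. Psca, a proximal marker, was at 442, 2579 and 307 CPM under 10, at 0, 544 and 76.3 CPM from 10 to 50, and at 128, 8.11 and 17.9 CPM above. Knockout cells with 28, 11, 10, 10 and 7 Psca UMIs had Sbp at 0.00269% to 0.105% of their UMIs. Some of the cells may thus be proximal, which was not tested. At the threshold itself, 1, 7 and 24 cells had exactly 5 Spink5 UMIs, with Sbp at 88.9, 95086 and 41435 CPM. Just outside it, 0, 7 and 24 barcodes had exactly 4, with Sbp at 4899 and 111441 CPM in the heterozygotes.

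Pbsn divided the cells of the heterozygotes into a low and a high range. At least 40 Pbsn UMIs per 10000, a boundary chosen after seeing the plot of single cells, were counted in 1 of 16 knockout cells, 32 of 170 (18.8%) in heterozygote 1 and 192 of 305 (63.0%) in heterozygote 2. In heterozygote 2 the 192 cells had 4.96% of their UMIs from Svs genes, and 77 of them had at least 5 smooth muscle UMIs, against 0.181% and 2 cells among its 113 cells of low Pbsn. The high range held less Spink5 RNA, 6773 against 9829 CPM in heterozygote 1 and 2561 against 6510 CPM in heterozygote 2. Sbp was at 125973 against 292979 CPM and at 77738 against 225643 CPM in the same order. The part of these secretory and smooth muscle RNAs in the results was not tested.

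**Figure D2:**
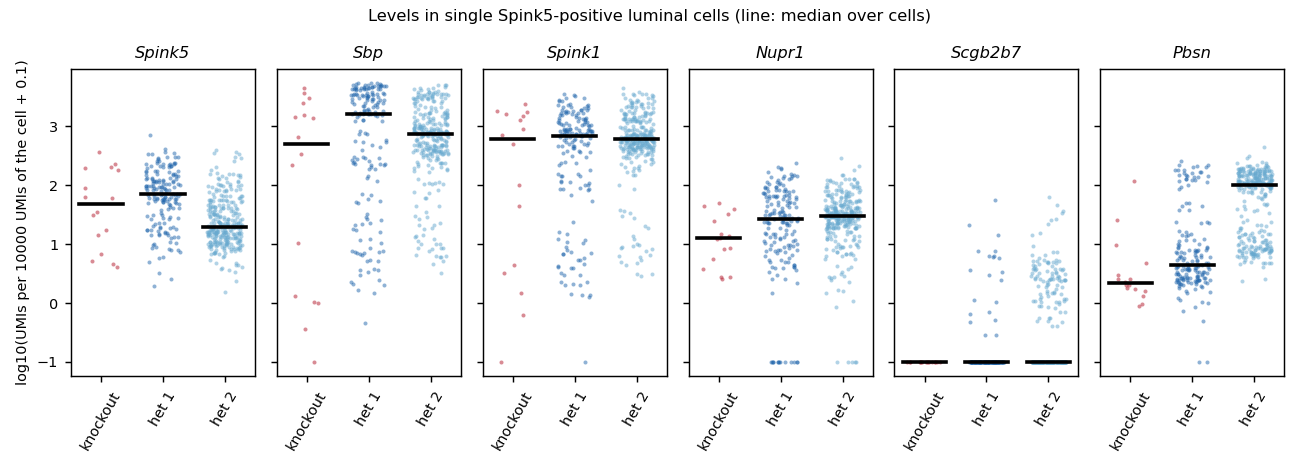
Level of 6 genes in each Spink5-positive cell (points) by library (het: heterozygote), as log10 of UMIs per 10000 UMIs of the cell plus 0.1, with a line at the median over cells. Cells at -1 have no UMI of the gene. Pbsn lies in a low and a high range in heterozygote 2, and Scgb2b7 is at 0 in all 16 knockout cells.

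Spink5-positive cells were a smaller share of the luminal cells in the knockout library. They made up 16 of 1689 luminal cells in the knockout (0.947%, exact Clopper-Pearson 95% interval 0.542 to 1.53%), 170 of 2321 in heterozygote 1 (7.32%, 6.30 to 8.46%) and 305 of 4338 in heterozygote 2 (7.03%, 6.29 to 7.83%). The knockout interval did not overlap those of the heterozygotes, whose shares were close to each other, and the knockout share was 0.132 of their mean. The intervals cover counting error only, and with 1 library against 2 no permutation of the libraries can give a p below 0.33. Other luminal cells had to hold at least 5 UMIs of Krt8 and Krt18 and under 5 of each stromal or immune list. Spink5-positive cells faced no such limit, and 79 of the 305 in heterozygote 2 had at least 5 smooth muscle UMIs. With both classes held under 2 stromal or immune UMIs, and barcodes of very high total left out, the shares were 0.824%, 6.66% and 4.70%. The part of these unlike limits in the shares was not tested. When each luminal cell was thinned to 2000 UMIs, leaving out 23, 0 and 255 shallower cells, at least 1 Spink5 UMI was found in 1.50%, 11.1% and 10.9%, against 3.20%, 18.5% and 20.1% without thinning. Low background levels of Spink5 followed the same order: fibroblasts, which should lack it, held a UMI in 1.41%, 9.70% and 7.39% of cells at median depths of 3829, 3442 and 2587 UMIs, so a single UMI was not read as expression.

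The size of the difference in share depended on seminal vesicle RNA. With Svs genes held under 3% of UMIs, the shares were 1.64%, 7.28% and 4.20%, and the knockout share was 0.286 of the heterozygote mean. Without the Pbsn-high cells they were 0.889%, 6.03% and 2.73%, a ratio of 0.203, and heterozygote 2 lay between the other libraries. Cells with at least 5% of their UMIs from Sbp, counted without regard to Spink5, were 28 (1.66%, 1.10 to 2.39%), 249 (10.7%, 9.50 to 12.1%) and 447 (10.3%, 9.42 to 11.2%) of the luminal cells. Of these Sbp-rich cells, 28.6%, 41.8% and 40.9% were Spink5-positive.

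**Figure D3:**
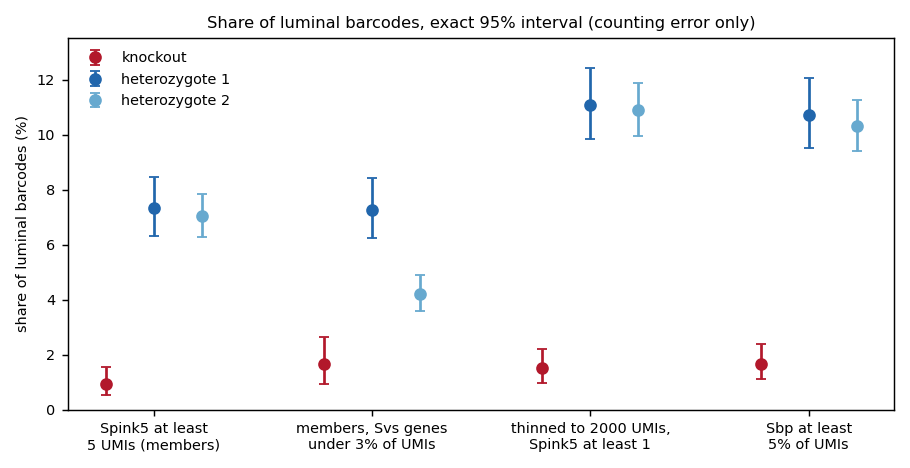
Share of luminal barcodes in percent (vertical axis) that were Spink5-positive cells, that remained so with Svs genes under 3% of UMIs, that had a Spink5 UMI after thinning to 2000 UMIs, or that had at least 5% of UMIs from Sbp, for 1 knockout and 2 heterozygote libraries. Points are single libraries and bars are exact 95% intervals for counting error; the knockout is lowest in each of the 4 sets, at 0.947% in the first.

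The 16 knockout cells allowed a comparison of levels but no firm test of genotype. They were deeper than the heterozygote cells, with a median of 26481 UMIs against 10685 and 9610, and 7 of the 16 lay above the 95th percentile of luminal depth. Against this, the other luminal cells had medians of 9230, 8656 and 9523 UMIs. Fewer than 20 knockout cells had been set as too few for a fit, so the values come first. Of 2236 genes with a mean of at least 50 CPM, 28 (1.25%) were more than 2-fold higher in the knockout than in both heterozygotes and 34 (1.52%) were more than 2-fold lower.

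The leading transcripts of the cells were within the range of the heterozygotes or near it in the knockout. Its Sbp level (169708 CPM) lay between the heterozygotes, and its Spink1 level (94303 CPM) was just below both. Its Spink5 level (8636 CPM) also lay between them, but Spink5 chose the cells, so that level is a description only. Kcnk3 (249 CPM), Hdac9 (669 CPM) and Cdcp3 (2369 CPM) were above both heterozygotes in the knockout, none of them 2-fold. When possible doublets were left out (barcodes of very high total or with at least 2 stromal or immune marker UMIs), 6 knockout cells remained. Sbp then stood at a log2 difference of -3.93 from the heterozygote mean and Spink1 at -1.16, so these levels rest on few cells. The cut on total alone removed 7 of the 16 knockout cells. Sbp made up 44.7%, 37.1%, 30.3%, 25.2%, 14.7%, 3.41% and 0.00269% of the UMIs of these 7. The part of this cut in the lower levels was not tested. The edgeR fit, here with fewer than the 20 cells set for a fit, put both genes lower, Sbp at -4.42 and Spink1 at -1.62.

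Nupr1 was the most abundant gene that was 2-fold lower. Its knockout level of 1805 CPM compared with 5100 and 4547 CPM, a 2.64-fold difference (95% counting interval 2.45 to 2.84), and both heterozygotes lay above it. An edgeR quasi-likelihood fit of the summed UMIs, added after the data were seen, gave a log2 change of -1.44 ± 0.58 (SE) with an adjusted p of 0.505, so Nupr1 did not pass. Among cells with at least 50 Spink5 UMIs per 10000 the knockout was again the lowest, at 1904, 5055 and 5835 CPM. In other luminal cells Nupr1 fell by 1.69 ± 0.35 with an adjusted p of 0.000136. The test of the difference between the 2 cell classes gave 0.12 ± 0.20 (adjusted p = 0.873). Over 15 settings the adjusted p of Nupr1 in the Spink5-positive cells ran from 0.000457 to 0.665, and it passed in 1, with possible doublets left out.

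Scgb2b7, a secretoglobin proposed as a marker, was at 0 in the knockout, 98.7 CPM in heterozygote 1 and 221 CPM in heterozygote 2. A UMI was found in 0 of 16 cells (exact 95% upper limit 20.6%; 3 counts of 16 are 18.8%), in 21 of 170 (12.4%, exact interval 7.81 to 18.3%) and in 104 of 305 (34.1%, 28.8 to 39.7%). Set against a floor of 3 UMIs in the knockout library, its level was at least 24.0-fold lower than in the pooled heterozygotes, 13.7-fold against heterozygote 1 alone and 30.7-fold against heterozygote 2 alone. Its RNA was concentrated: 10 cells held 85.2% of the Scgb2b7 UMIs of heterozygote 1 and 70.2% of those of heterozygote 2. Thinned to 2000 UMIs, 7.06% and 14.9% of heterozygote cells held a UMI, both under the upper limit for the 16 knockout cells.

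Other secretoglobins followed Scgb2b7. Scgb2b20 was at 0, 42.3 and 121 CPM (at least 12.5-fold lower in the knockout, 5.88-fold against heterozygote 1 alone) and Scgb1b20 at 0, 20.3 and 74.7 CPM (at least 7.42-fold lower, 2.82-fold against heterozygote 1 alone). In the added edgeR fit Scgb2b7 was lower with an adjusted p of 2.45e-08, Scgb2b20 with 8.65e-06 and Scgb1b20 with 0.000806. DESeq2 called Scgb2b7 (adjusted p = 0.0282) and not Scgb2b20 (0.157), and limma-voom called neither (0.0602 and 0.283). The knockout's other luminal cells had 0 UMIs of these 3 genes too, against 493 and 763 Scgb2b7 UMIs in the heterozygotes, so the 0 in the knockout held in both cell classes.

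Scgb2b27 and Scgb1b27 took the opposite course outside these cells. Scgb2b27 was at 2.40, 283 and 34.9 CPM in the Spink5-positive cells but at 267, 12.0 and 9.95 CPM in the other luminal cells. Scgb1b27 was at 0, 9.35 and 0.524 CPM in the former and 503, 1.82 and 0.601 CPM in the latter. For both genes the knockout was therefore the highest library outside the Spink5-positive cells. Inside them it was the lowest for Scgb2b27, at a value near 0. For Scgb1b27 the 417111 UMIs of the knockout cells are too few to tell 0 from the 0.524 CPM of heterozygote 2.

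Read by list, the knockout's Spink5-positive cells differed 2-fold from both heterozygotes in few groups, beside 1.25% higher and 1.52% lower over all genes and a median log2 difference of 0.07. All 3 secretoglobins at 50 CPM were lower and 3 of 6 seminal vesicle genes were higher. Of 14 prostate secretions 1 was higher and 3 lower, of 15 proximal markers 1 was higher and 1 lower, and of 19 immediate early and heat shock genes 2 were higher (Ier3 and Hspb1). Of 24 secretory-pathway genes only Nupr1 was lower, and of 12 protease inhibitors only Wfdc3, a gene of the selection. Of 11 androgen-responsive genes 1 was lower and of 5 innate defence genes 1 was higher (Cxcl17).

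The other genes that the added edgeR fit named fell into few groups. It called 39 of 10171 genes (0.383%; 17 higher, 0.167%, and 22 lower, 0.216%), with 646 at an unadjusted p under 0.05, and DESeq2 called 5 and limma-voom 19. Of the named higher genes, Sva, Svs1, Svs3a, Svs6, Svs3b and Ceacam10 are seminal vesicle secretions, and 4 of these Svs genes were also used by the selection. The most abundant genes of that list had another order, with Svs2 at 1335, 491 and 9546 CPM and Svs5 at 3531, 885 and 13067 CPM, and the whole list summed to 9475, 2088 and 25801 CPM, so heterozygote 2 was the highest. Svs6 was at 415, 12.2 and 16.5 CPM and Ceacam10 at 290, 8.13 and 22.3 CPM. The same genes were higher in the knockout's other luminal cells, at 1131 against 14.7 and 11.8 CPM for Svs6. Fstl4, Adcy8 (an adenylate cyclase) and Sphk1 (sphingosine kinase) followed at 24.0 to 33.6 CPM in the knockout. Among cells with at least 10 Spink5 UMIs per 10000, Fstl4 turned to a log2 difference of -0.97, and Sphk1 went from a fitted 2.61 (adjusted p = 0.0208) to 0.67 (adjusted p = 0.944).

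Of the 10 named lower genes, 4 were secretoglobins and Msmb belongs to the selection. Mt3, Caln1, Pecam1, Fcgbp and Fam53c were at 0 in the knockout and at 9.35 to 64.2 CPM in the heterozygotes, at least 3.06-fold to 5.94-fold lower than the pooled heterozygotes, and 1.30-fold to 3.90-fold against heterozygote 1 alone. Pecam1 is a marker of endothelium. Without the Pbsn-high cells Caln1 still passed, and Mt3 (adjusted p = 0.844), Pecam1 (0.183), Fcgbp (0.529) and Fam53c (0.0831) did not. With possible doublets left out the 4 that could be fitted did not pass, at adjusted p from 0.249 to 0.407, and limma-voom called none of the 5, at 0.955 to 0.999. Ren1 also passed, at -3.93 ± 0.67 (adjusted p = 4.02e-06), but without the Pbsn-high cells it was at -0.59 (adjusted p = 0.962). Of the 39 genes, 17 were called with the same sign in the other luminal cells, where 565 of 16286 genes passed (3.47%; 310 higher, 1.9%, and 255 lower, 1.57%).

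Genes 2-fold higher in the knockout that did not pass included Bmpr1b, a BMP receptor (961, 352 and 319 CPM), and Clu, the chaperone clusterin (2431, 908 and 818 CPM). For both, the knockout lay above both heterozygotes. Hspb1, a small heat shock protein, was at 1225, 508 and 387 CPM. Among the 28 genes were 8 of ribosomal proteins. On the lower side Igfbp7, a secreted binder of insulin-like growth factors, was at 12.0, 81.3 and 80.2 CPM and passed at -2.76 (adjusted p = 0.0243). Igfbp7 did not pass without the Pbsn-high cells (0.105), with possible doublets left out (-1.69, 0.536), in DESeq2 (0.153) or in limma-voom (0.470). Gpx3, a secreted glutathione peroxidase, was at 110, 352 and 336 CPM and did not pass (adjusted p = 0.250).

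**Figure D4:**
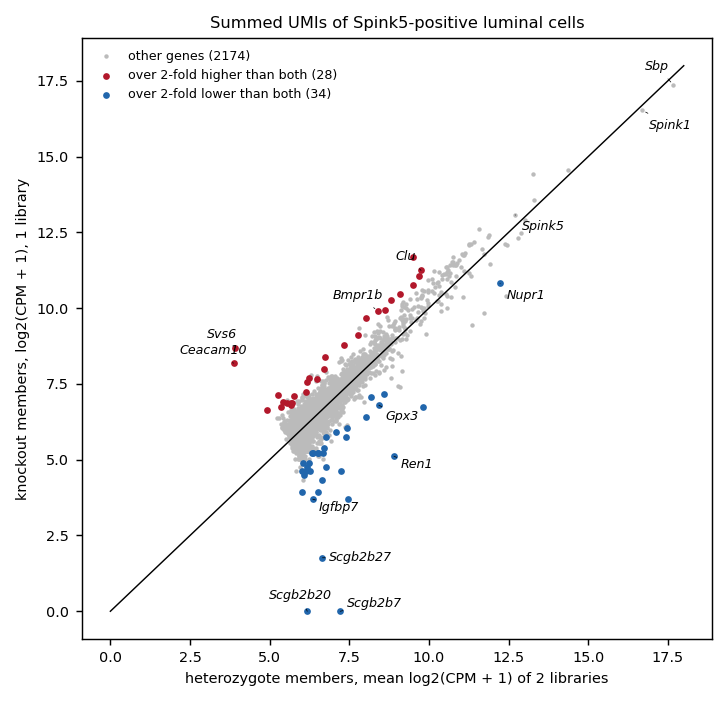
Level of 2236 genes in the summed UMIs of Spink5-positive cells, as log2(CPM + 1) in the knockout library (vertical) against the mean of the 2 heterozygote libraries (horizontal), with the line of equality. Red marks the 28 genes more than 2-fold higher and blue the 34 more than 2-fold lower than both heterozygotes. Sbp, Spink1 and Spink5 (the gene that chose the cells) lie near the line, and Scgb2b7 and Scgb2b20 lie at 0 in the knockout.

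The knockout difference in Spink5-positive cells was then set against that in other luminal cells, with the library as a block and 1 residual degree of freedom. This test uses the same sum of 16 knockout cells, fewer than the 20 set for a fit. The spread between those cells does not enter its SE or p. Of 15103 genes, 17 differed (0.113%; 10 higher, 0.0662%, and 7 lower, 0.0463%), with 1082 at an unadjusted p under 0.05. Sbp fell by 1.98 on the log2 scale in the knockout's other luminal cells (adjusted p = 1.68e-07) and moved by -0.41 ± 0.53 in the Spink5-positive cells (adjusted p = 0.994), a difference of 1.45 ± 0.11 (adjusted p = 0.000959). For Spink1 the difference was 1.93 ± 0.16 (adjusted p = 0.000959), with -2.25 in other luminal cells. Without the Pbsn-high cells the Spink1 difference was 1.66 (adjusted p = 0.00491) and the Sbp difference was 1.14 (adjusted p = 0.245), which no longer passed. With possible doublets left out of both classes the Sbp difference changed sign, to -1.72 (adjusted p = 4.95e-26), and that of Spink1 fell to 0.77 (adjusted p = 9.97e-07), so no direction for Sbp held across these settings.

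Of the genes on the higher side, Kcnk3 differed by 2.38 ± 0.31, Hdac9 by 1.78 ± 0.22, Abo, the blood group glycosyltransferase, by 2.08 ± 0.24, BB123696 by 3.01 ± 0.28, and Cldn10, a tight junction claudin, by 1.70 ± 0.26. In the edgeR fits each was lower in the knockout's other luminal cells, by log2 changes of -1.60 to -2.29, and lay between -0.31 and 0.87 in the Spink5-positive cells. With possible doublets left out BB123696 (2.36), Kcnk3 (2.21) and Cldn10 (1.97) still passed, and Hdac9 (-0.27, adjusted p = 0.848) and Abo (0.35, adjusted p = 0.852) did not. The other luminal cells include Sbp-rich cells without 5 Spink5 UMIs (20, 145 and 264 cells), so in these sums fewer such cells and less RNA per cell cannot be told apart.

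On the lower side Acta2 and Tagln, markers of smooth muscle, differed by -3.32 ± 0.46 and -4.00 ± 0.57. The other luminal cells were required to hold under 5 smooth muscle UMIs and the Spink5-positive cells were not, so the class definitions enter these values. The summed smooth muscle markers were at 36.0, 84.5 and 297 CPM in the Spink5-positive cells. With possible doublets left out, which holds both classes under 2 stromal or immune UMIs, Acta2 stood at -0.27 (adjusted p = 0.961) and Tagln at -0.09 (adjusted p = 0.996). Ren1 moved from -3.44 (adjusted p = 0.0411) to -0.05 (adjusted p = 1) without the Pbsn-high cells.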

How the data were processed

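The authors deposited a matrix of unnormalized UMI counts for each library. The submitters' processing notes name Cell Ranger 3.1.0 and the mm10 genome; the method of cell calling is not given in the sources used here. Library totals were 129015041, 47601747 and 100801564 UMIs, and the lowest barcode totals were 586, 2466 and 500. Barcodes were selected by the stated rule, and UMIs were summed per library and cell class and scaled to CPM (Python 3.11.15, numpy 2.4.6, scipy 1.17.1, pandas 2.3.3). Ratios are log2 of CPM plus 1. Other luminal cells had at least 5 UMIs of Krt8 and Krt18, under 10 of Krt5 and Krt14 and under 5 of each stromal or immune marker list. They were split into Msmb-high cells (at least 2% of UMIs from Msmb, Defb50 and Wfdc3), proximal cells (at least 5 UMIs of proximal markers that include Psca, Krt4 and Ppp1r1b) and the remaining cells. No doublet caller was run. An alternative left out barcodes above the 95th percentile of luminal totals or with at least 2 stromal or immune marker UMIs.

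Genotypes were to be compared by edgeR's quasi-likelihood test (edgeR 4.0.16, limma 3.58.1, R 4.3.3; TMM scaling, Benjamini-Hochberg over all genes tested, threshold 0.05) only with at least 20 Spink5-positive cells in every library. The knockout had 16, so its values are the result, and the fit in these cells was added after seeing the data, as were the difference between classes with possible doublets left out and the alternatives by Pbsn level, by Spink5 per 10000 UMIs and without Sbp and Spink1 in the totals. The fits had 1 residual degree of freedom, and nothing says that the libraries came from separate groups of animals, so p-values measure only the spread between these libraries. DESeq2 1.42.0, limma-voom, other scalings, count filters and cell filters were alternatives. The fits were also run on simulated library sums with a fixed spread. Uneven cells were not simulated, so these runs do not show how the fits behave on 16 knockout cells.

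Named genes were the 20 most and 10 least abundant in Spink5-positive against other luminal cells by log2 ratio (mean of at least 50 CPM, in 25% of cells of the higher class, one direction in both heterozygotes), up to 10 in each direction of the genotype fit, up to 5 in each direction of the difference between classes, the proposed markers, Esr1 and the most abundant genes of each of 28 lists. Genes 2-fold apart between genotypes that are named beside these were chosen after their values were seen. Members and lists were chosen with earlier results of these data known. Promoter windows come from RefSeq. Some genes are not reported here.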

Additional observations from a re-analysis of the deposited data

Results flagged for a closer look

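In 17 genes the knockout difference in Spink5-positive cells departed from that in other luminal cells by the edgeR test of the difference itself (adjusted p under 0.05, 1 residual degree of freedom). The values are log2 changes in Spink5-positive minus other luminal cells, and a fitted value of a gene at or near 0 in a group is no bound. The knockout side rests on the sum of 16 Spink5-positive cells, fewer than the 20 set for a fit, and the spread between those cells was not measured.

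On the higher side were BB123696 at 3.01, Kcnk3 at 2.38, the metalloprotease inhibitor Timp4 at 2.12, Abo at 2.08, Spink1 at 1.93, Bmpr1b at 1.82, Hdac9 at 1.78, Cmtm8 at 1.73, Cldn10 at 1.70 and Sbp at 1.45. On the lower side were the actin-binding Palld at -2.45, Gpx3 at -2.79, Acta2 at -3.32, Ren1 at -3.44, Tagln at -4.00, Scgb2b27 at -10.2 and Scgb1b27 at -18.1. Without the Pbsn-high cells 15 of the 17 still passed, and Sbp and Ren1 did not. With possible doublets left out 8 of the 17 passed, among them Sbp with its sign turned, at -1.72.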

How the results depend on the processing

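The knockout share stayed below both heterozygotes under every alternative run. As a ratio to the heterozygote mean it was 0.132, moved to 0.286 with Svs genes under 3% of UMIs and to 0.203 without Pbsn-high cells, and was 0.129 to 0.135 when either heterozygote was left out. The 62 genes 2-fold apart between genotypes (28 higher, 34 lower) became 392 with possible doublets left out (6 knockout cells; 337 higher, 55 lower), 118 with at least 10 Spink5 UMIs per 10000 (24 higher, 94 lower), and 113 (76 higher, 37 lower) to 213 (61 higher, 152 lower) without heterozygote 2 or 1. The 207 genes 2-fold apart from other luminal cells became 402 with Svs genes under 3%, 314 with possible doublets left out, 492 without Pbsn-high cells, and 240 to 577 without 1 heterozygote.

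The added edgeR fit called 39 genes (17 higher, 22 lower). It called 73 with at least 3 Spink5 UMIs (42 higher, 31 lower), 64 with possible doublets left out (41 higher, 23 lower, 16 shared with the 39) and 40 without Pbsn-high cells (27 higher, 13 lower, 26 shared). DESeq2 called 5 and limma-voom 19 (15 higher, 4 lower). In other luminal cells 565 genes became 340 with Svs genes under 3% (132 higher, 208 lower), 167 by DESeq2 and 357 by limma-voom (236 higher, 121 lower). The 17 genes that differed between cell classes became 36 with at least 10 Spink5 UMIs, 34 with at least 30 UMIs in total, 96 without Pbsn-high cells (48 higher, 48 lower), 101 with possible doublets left out (51 higher, 50 lower, 8 shared with the 17) and 152 with median-ratio size factors (60 higher, 92 lower).

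Of 341 genotype differences over 31 genes and settings, 275 moved by less than the spread between the heterozygotes, 55 moved by more and 11 changed sign. Values without 1 heterozygote lie within this spread by construction, so they could count only as unmoved or of changed sign. With possible doublets left out, Spink5 was at -0.11, Gpx3 at 0.68 and Esr1 at 0.33. With at least 10 Spink5 UMIs per 10000, Spink1 was at 0.10, Fstl4 at -0.97, Hilpda at -2.04 and Esr1 at 0.029. Esr1 was at 0.23 without Pbsn-high cells. Without heterozygote 2, Spink5 was at -0.14, Esr1 at 0.41 and Sbp at -0.70, and without heterozygote 1 Spink5 was at 0.88 and Sbp at 0.10. The cause was not tested. Of 358 differences from other luminal cells, 58 moved and 0 changed sign, and those without 1 heterozygote again could not count as moved. No paired analysis was possible because there is 1 knockout library and the replicate numbers only name the libraries. Fits without 1 heterozygote leave no residual degrees of freedom and give values only.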
